A study of Mus musculus with 12 samples.

Results

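The unfolded protein response (UPR) and endoplasmic reticulum (ER) folding genes are 34 of the 39179 genes in the count table of sorted pancreatic stellate cells (PSCs). They were taken by symbol from a fixed list and fall into 3 groups by role. The first group holds 19 chaperones, folding enzymes and sensors of the ATF6 and XBP1 branches. The second holds 8 genes of the ATF4 arm, and the third holds 7 genes of the secretory machinery and of ER-associated degradation (ERAD). *Derl3*, an ERAD factor found mainly in secretory cells, had 0 counts in all 12 libraries, so 33 of the 34 genes passed the filter on low counts in each comparison. A count of 0 allows up to 3 counts, which is 0.371 to 0.658 counts per 1000000 across the libraries.

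PSCs are fibroblast-like cells of the pancreas that can give rise to cancer-associated fibroblasts. Mouse PSCs of C57BL/6 strain, a single SV40-immortalised clone labelled with mCherry, spent 72 h either by themselves (mono-PSCs), together with pancreatic cancer cells (PCCs) carrying EGFP (2W-PSCs), or with these PCCs and with macrophages (MØs) of a mouse cell line carrying TagBFP (3W-PSCs). All cultures were held in medium with little serum at the same total number of cells, and the PSCs were then sorted on mCherry without EGFP or TagBFP. RNA was counted at the 3′ end of transcripts in 4 libraries per culture, stated to be biological replicates. Because all libraries derive from 1 clone, their spread covers separate cultures and not separate animals.

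The ER folds and modifies proteins bound for the membrane or for secretion, a load that is large in fibroblasts that secrete matrix. When unfolded proteins accumulate, 3 sensors respond: ATF6 and the IRE1-XBP1 branch raise chaperones and ERAD genes, and PERK phosphorylates eIF2α, which slows translation and favours that of ATF4. ATF4 is also reached from amino acid shortage and other stresses, and it raises genes of amino acid supply, the transcription factor CHOP (*Ddit3*) and feedback regulators. IRE1 acts by splicing the *Xbp1* transcript, which counts at the 3′ end do not resolve.

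The promoters of these genes are known for short elements that the UPR factors read. RefSeq gave windows on GRCm38.p6, from 250 bases before to 50 bases after the start, for 30 of the 34 genes, all but *Atf6*, *Derl1*, *Hyou1* and *Manf*. Both strands were searched for 4 motifs. The ER stress response element (ERSE; CCAAT, any 9 bases, CCACG) was in 9 of the 30 windows, those of *Hspa5*, *Hsp90b1*, *Calr*, *Canx*, *Pdia6*, *Dnajc3*, *Creld2*, *Syvn1* and *Derl3*, and in 0.119% of all 32851 windows. The related ERSE-II (ATTGG, any base, CCACG) was in those of *Herpud1* and *Dnajb11*, and in 0.0365% of all windows. The core of the C/EBP-ATF response element (CARE; TGATGNAA), which ATF4 dimers are known to bind, was in those of *Trib3*, *Chac1*, *Asns* and *Herpud1*, and in 3.97% of all windows. The core of the XBP1-bound UPR element (TGACGTGG) was in none of the 30 and in 0.676% of all. A match here is a run of letters and not a bound site.

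The windows of 6 genes are shown because they carry an element and belong to genes whose levels the results below turn on, with *Asns* as a carrier that edgeR called in no comparison. Each runs 5′ to 3′ along its gene, and capitals mark the fixed letters of the element on either strand. *Hspa5* and *Syvn1* hold an ERSE, *Herpud1* an ERSE-II and a CARE core, and the other 3 a CARE core.
*Hspa5* (ERSE, chr2:34771840-34772139, plus strand): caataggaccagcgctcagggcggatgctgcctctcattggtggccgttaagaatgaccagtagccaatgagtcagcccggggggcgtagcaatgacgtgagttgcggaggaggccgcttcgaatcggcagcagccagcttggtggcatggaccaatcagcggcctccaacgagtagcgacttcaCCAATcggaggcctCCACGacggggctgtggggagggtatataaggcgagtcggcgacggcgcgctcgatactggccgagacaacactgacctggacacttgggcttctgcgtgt
*Syvn1* (ERSE, chr19:6046326-6046625, plus strand): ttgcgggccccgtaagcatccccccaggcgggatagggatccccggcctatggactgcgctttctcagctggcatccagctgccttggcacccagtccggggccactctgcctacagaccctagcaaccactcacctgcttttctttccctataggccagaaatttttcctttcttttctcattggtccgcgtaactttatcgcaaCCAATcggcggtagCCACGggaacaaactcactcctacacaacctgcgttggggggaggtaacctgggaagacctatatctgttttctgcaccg
*Herpud1* (ERSE-II and CARE core, chr8:94386179-94386478, plus strand): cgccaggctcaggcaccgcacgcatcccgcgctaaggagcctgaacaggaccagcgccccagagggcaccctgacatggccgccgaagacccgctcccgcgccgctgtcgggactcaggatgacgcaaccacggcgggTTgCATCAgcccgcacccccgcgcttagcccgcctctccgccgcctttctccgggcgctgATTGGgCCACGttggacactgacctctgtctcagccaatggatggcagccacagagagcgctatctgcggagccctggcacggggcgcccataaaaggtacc
*Trib3* (CARE core, chr2:152344011-152344310, minus strand): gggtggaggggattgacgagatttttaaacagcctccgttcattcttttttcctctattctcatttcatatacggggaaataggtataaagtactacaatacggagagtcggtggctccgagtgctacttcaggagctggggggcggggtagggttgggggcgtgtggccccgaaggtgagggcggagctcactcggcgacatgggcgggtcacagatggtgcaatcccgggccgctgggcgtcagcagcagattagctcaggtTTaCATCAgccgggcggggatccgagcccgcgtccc
*Chac1* (CARE core, chr2:119350992-119351291, plus strand): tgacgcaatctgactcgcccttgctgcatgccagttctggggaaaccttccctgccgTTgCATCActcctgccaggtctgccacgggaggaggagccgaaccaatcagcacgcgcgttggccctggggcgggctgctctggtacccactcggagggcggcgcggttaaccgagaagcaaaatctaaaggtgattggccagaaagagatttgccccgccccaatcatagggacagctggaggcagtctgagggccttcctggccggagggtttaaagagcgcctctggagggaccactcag
*Asns* (CARE core, chr6:7693160-7693459, minus strand): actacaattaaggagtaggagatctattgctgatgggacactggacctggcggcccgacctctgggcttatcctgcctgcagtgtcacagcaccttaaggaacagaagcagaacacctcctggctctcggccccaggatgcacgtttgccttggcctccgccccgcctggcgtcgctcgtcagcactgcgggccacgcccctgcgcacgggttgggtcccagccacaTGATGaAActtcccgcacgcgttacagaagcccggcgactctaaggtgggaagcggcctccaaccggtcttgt

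Libraries held 4561817 to 8093368 counts, with 10363 to 11741 genes at 10 counts or more. Levels are counts per 1000000 counts (CPM) scaled by TMM over all 12 libraries. As 3′ libraries aim at 1 fragment per transcript, levels were not divided by transcript length. How evenly different genes are counted was not tested, so the order of genes by level is approximate. Within cultures, libraries correlated at a Spearman rho of 0.948 to 0.987 across genes, except the pairs with 2W-PSC replicate 2, at 0.858 to 0.920, so counts, medians, sums and estimates that include 2W-PSCs are followed by their values without it. The 12 PSC and fibroblast markers summed to 8997 to 12784 CPM in mono-PSCs, with a range of 12631 to 19633 CPM for 2W-PSCs and of 7207 to 8737 CPM for 3W-PSCs. Among them, *Lum*, *Fap* and *Des* reached at most 1.37, 6.76 and 3.32 CPM in any library. The 13 MØ markers summed to 2.63 to 9.40, 4.36 to 11.8 and 21.7 to 59.6 CPM in mono-PSCs, 2W-PSCs and 3W-PSCs. Of these, *Adgre1* was at 0 in all libraries, and *Ptprc*, *Tyrobp*, *Laptm5* and *Spi1* were at 0 in all mono-PSC and 2W-PSC libraries. In 3W-PSCs *Cybb* was at 4.07 to 8.44 CPM and *Lyz2* at 0.810 to 13.9 CPM. The 13 epithelial markers summed to 1.21 to 3.34, 76.7 to 151 and 55.1 to 93.4 CPM, with *Cldn4* at 0 throughout. Of these, *Krt18* was at most 0.196 CPM in mono-PSCs, and at 30.7 to 53.1 CPM in 2W-PSCs and 15.3 to 30.1 CPM in 3W-PSCs. The part of these other cells' transcripts in the differences below was not tested. In bulk libraries, fewer cells expressing a gene and less RNA of it per cell cannot be told apart.

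Over all 12 libraries the ER chaperone BiP (*Hspa5*) had the highest mean level of the 34 genes, at 1557 CPM. The transcription factor gene *Atf4* followed at 1285 CPM, then calreticulin (*Calr*) at 1007 and GRP94 (*Hsp90b1*) at 966 CPM. The ranges of *Calr* and *Hsp90b1* overlapped in every culture, and these genes were not tested against each other. CHOP (*Ddit3*) stood at 672 CPM and the lectin chaperone calnexin (*Canx*) at 619 CPM. The UPR sensors were far lower: *Atf6* at 34.7 CPM, IRE1 (*Ern1*) at 9.53 CPM and PERK (*Eif2ak3*) at 5.54 CPM. *Hsp90b1* shares 217 exonic bases with *Gm15344* and *Gm25745* on its strand and 415 with *1810014B01Rik* on the other, and *Eif2ak3* shares 485 with *Gm43292* on the opposite strand, so their counts are uncertain. *Xbp1* itself stood at 27.8 CPM, and the BiP co-chaperone *Dnajb9* at 8.66 CPM.

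**Figure D1:**
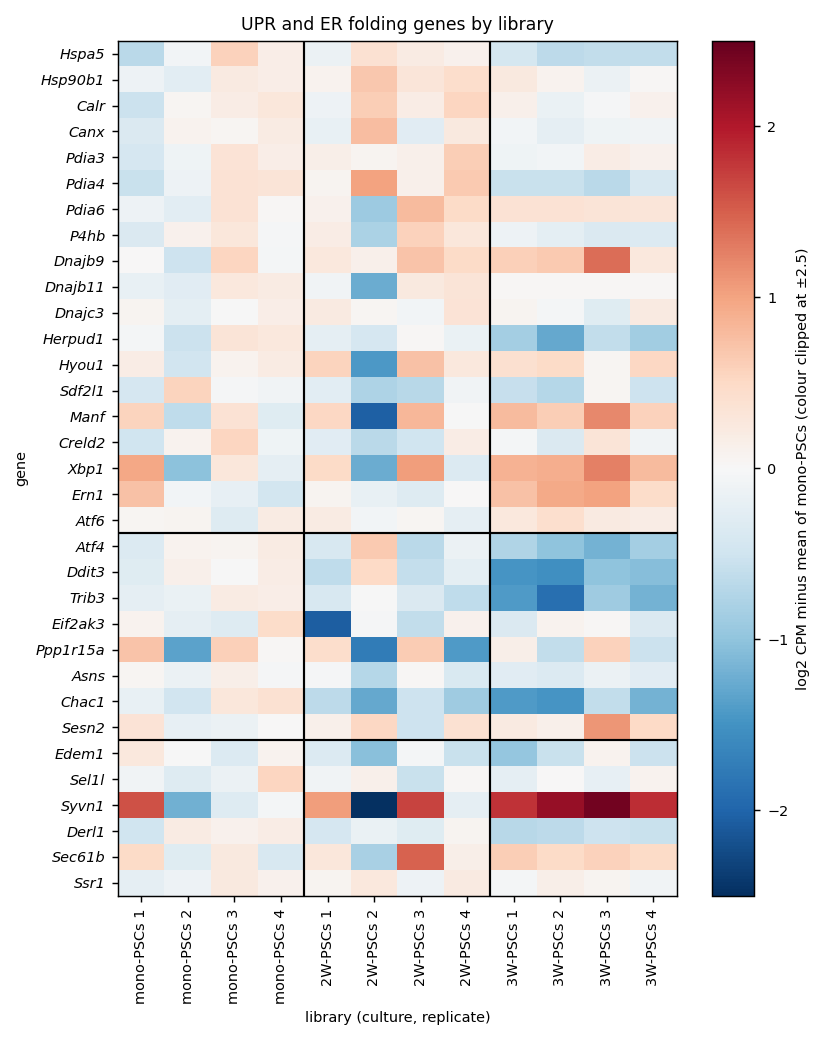
Level of 33 genes (rows, by role) in each of the 12 libraries (columns), as log2 CPM minus the mean of the 4 mono-PSC libraries, with colour clipped at 2.5 in either direction. The rows of *Atf4*, *Ddit3*, *Trib3* and *Chac1* are blue in all 4 3W-PSC libraries, and *Syvn1* is red in them, while 2W-PSC replicate 2 differs from the other 2W-PSC libraries in many rows.

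The first comparison asked which of these genes differed when PSCs were cultured with PCCs. None did at an adjusted p under 0.05: edgeR called 0 of 33 genes higher and 0 lower in 2W-PSCs against mono-PSCs, where 0.839% of all 11199 genes tested were higher and 0.152% lower. With a log2 fold change above 1 as well, the background was 0.777% higher and 0.134% lower, and the count was again 0. Their log2 fold changes ran from -0.84 to 0.49 with a median of 0.07, against 0.02 over all genes. The median was 0.14 in the chaperone group, where 14 of 19 estimates were positive, and -0.28 in the ATF4 arm, where 7 of 8 were negative; over all genes 5900 of 11199 were positive. At an unadjusted p under 0.05 there were 0 higher and 1 lower of the 33, against 7.40% of all genes, and DESeq2 also called 0 in either direction. Left without 2W-PSC replicate 2, edgeR called 0 as well, with 2 higher (*Pdia6* and *Sec61b*) and 3 lower (*Chac1*, *Ddit3* and *Trib3*) at an unadjusted p under 0.05, against 9.49% of all genes. In that fit the median was 0.19 in the chaperone group, with 13 of 19 positive, and -0.44 in the ATF4 arm, with 7 of 8 negative.

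The gene at an unadjusted p under 0.05 was *Chac1* (ENSMUSG00000027313, chromosome 2, 119351229 to 119354381 on the plus strand of GRCm38), which encodes a glutathione-degrading enzyme downstream of ATF4 and CHOP. It was at 162, 132, 222 and 238 CPM in mono-PSCs and at 116, 75.1, 128 and 99.1 CPM in 2W-PSCs. Every 2W-PSC library was below every mono-PSC library (log2 fold change -0.84 ± 0.240 SE, adjusted p = 0.187 by edgeR without a replicate block). Over all alternative edgeR and DESeq2 fits, the replicate block among them, its adjusted p ran from 0.0553 to 0.539. An exact two-sided permutation test gave p = 0.0286, the smallest that 4 libraries against 4 allow. It ignored the replicate numbers, and the gene was picked for its unadjusted p, so it adds no separate support. The gene with the largest positive estimate was the disulphide isomerase gene *Pdia4* (log2 fold change 0.49 ± 0.272 SE, adjusted p = 0.844), whose groups overlapped. The log2 fold change without 2W-PSC replicate 2 was -0.72 ± 0.218 SE (adjusted p = 0.138) for *Chac1* and 0.26 ± 0.230 SE (adjusted p = 0.862) for *Pdia4*.

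The second comparison asked the same of PSCs cultured with both PCCs and MØs. Of 33 genes, 2 were higher and 8 lower in 3W-PSCs than in mono-PSCs, where 13.4% of all 11551 genes tested were higher and 13.0% lower. The median log2 fold change of the members was -0.08, against 0.01 over all genes. The lower genes were *Atf4*, *Ddit3*, *Trib3* and *Chac1* of the ATF4 arm, *Hspa5*, *Pdia4* and *Herpud1* of the chaperone group, and the ERAD gene *Derl1*. The higher genes were *Manf* and *Syvn1*. With a log2 fold change above 1 as well, 1 gene was higher (*Syvn1*) and 3 were lower (*Ddit3*, *Trib3* and *Chac1*), against 7.85% and 4.09% of all genes.

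In the ATF4 arm, 4 of 8 genes fell and 0 rose, with a median log2 fold change of -0.61, where 13.0% of all genes fell and 13.4% rose. *Atf4* (ENSMUSG00000042406, chromosome 15, 80255184 to 80257541 on the plus strand of GRCm38), the transcription factor at the head of this arm, was at 1213, 1631, 1613 and 1779 CPM in mono-PSCs. In 3W-PSCs it was at 920.3, 769.8, 685 and 860.4 CPM. Every 3W-PSC library was below every mono-PSC library, and the 3W-PSC level was 0.516 times that of mono-PSCs (log2 fold change -0.95 ± 0.166 SE, adjusted p = 0.000396).

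*Ddit3* encodes CHOP, a transcription factor of prolonged ER stress (ENSMUSG00000025408, chromosome 10, 127290774 to 127296288 on the plus strand of GRCm38). It was at 704, 948, 865 and 987 CPM in mono-PSCs and at 314, 299, 432 and 418 CPM in 3W-PSCs. The groups did not overlap, and the fitted ratio was 0.415 (log2 fold change -1.27 ± 0.172 SE, adjusted p = 3.44e-05). Its exons share 105 bases with a second gene entry of the same name and 81 bases with *Gm4189* and *Mars* on the opposite strand, and the strand setting of the counting is not given in the sources used here. *Mars*, among the tRNA synthetases listed with these genes, was not called in this comparison. *Trib3*, a pseudokinase induced by ATF4 and CHOP that restrains AKT (ENSMUSG00000032715, chromosome 2, 152337422 to 152344032 on the minus strand of GRCm38), was at 261, 274, 354 and 345 CPM in mono-PSCs. In 3W-PSCs it was at 114, 82.5, 164 and 135 CPM. No 3W-PSC library reached the lowest mono-PSC library, and the ratio of 0.400 was the lowest of the 33 genes (log2 fold change -1.32 ± 0.194 SE, adjusted p = 7.35e-05).

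*Chac1* was at 68.7, 66.2, 119.6 and 80.5 CPM in 3W-PSCs, against the mono-PSC values given above, and again no library overlapped (log2 fold change -1.18 ± 0.214 SE, adjusted p = 0.000581). These 4 genes stayed under an adjusted p of 0.05 without any 1 of the 8 libraries. The 4 other genes of the arm were not called. The asparagine synthetase gene *Asns*, whose window holds a CARE core as those of *Trib3* and *Chac1* do, was at 213, 187, 229.5 and 203 CPM in mono-PSCs and at 172, 164, 187 and 170.4 CPM in 3W-PSCs. Its groups just failed to overlap, with a small estimate (log2 fold change -0.27 ± 0.139 SE, adjusted p = 0.158). *Sesn2*, a stress-induced inhibitor of mTORC1 signalling, had the 1 positive estimate of the arm (log2 fold change 0.52 ± 0.207 SE, adjusted p = 0.0733). The adjusted p of *Sesn2* was 0.0228 without mono-PSC replicate 1, 0.0451 without 3W-PSC replicate 2 and 0.0224 with no filter on low counts. *Ppp1r15a* encodes GADD34, which directs dephosphorylation of eIF2α, and *Eif2ak3* encodes PERK. Neither passed the test, with log2 fold changes of -0.22 and -0.19, SE of 0.333 and 0.318 and adjusted p of 0.659 and 0.691.

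**Figure D2:**
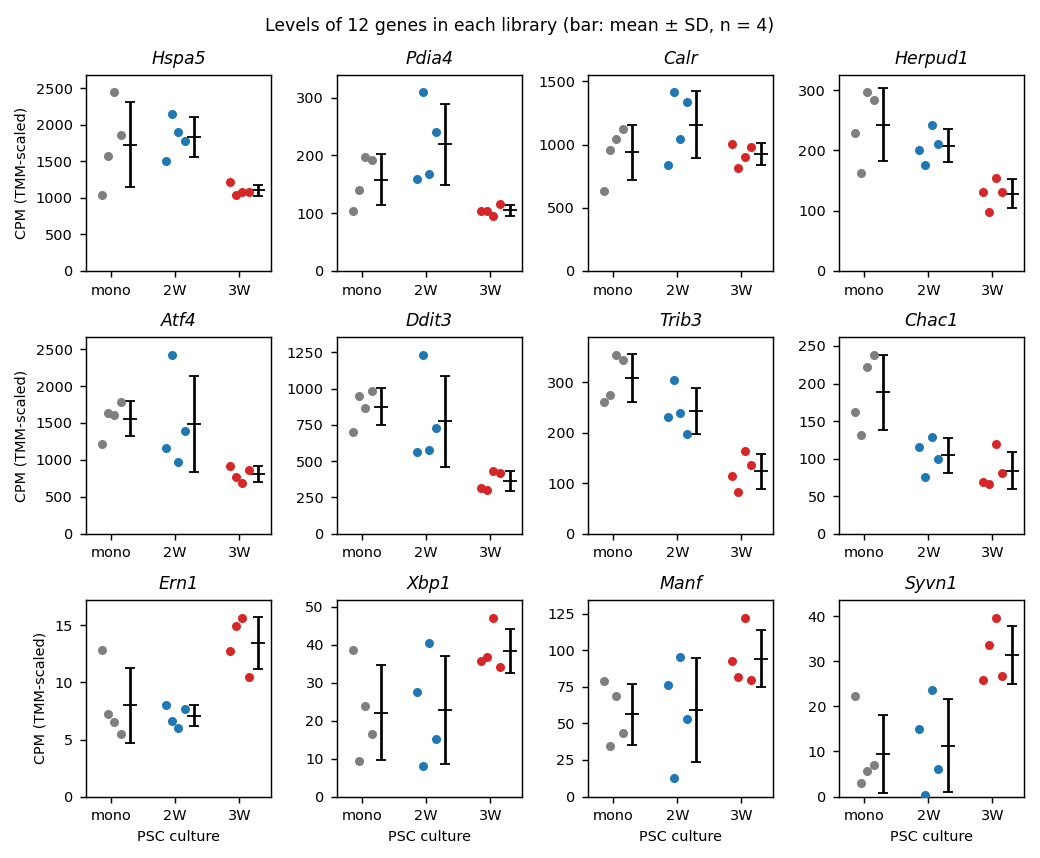
Level in CPM (vertical axes, from 0) of 12 genes in each of the 4 libraries of mono-PSCs (grey), 2W-PSCs (blue) and 3W-PSCs (red), with the mean ± SD beside the points. The 3W-PSC points of *Atf4*, *Ddit3* and *Trib3* lie below all others, those of *Ern1* above all 2W-PSC points, and the mono-PSC and 2W-PSC points of *Xbp1*, *Manf* and *Syvn1* are widely spread.

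In the chaperone group, 3 of 19 genes fell and 1 rose in 3W-PSCs against mono-PSCs, where 13.0% of all genes fell and 13.4% rose. The median log2 fold change of the group was -0.0015. *Herpud1* (ENSMUSG00000031770, chromosome 8, 94386438 to 94395377 on the plus strand of GRCm38) encodes an ER membrane protein that recruits the ERAD machinery. It was at 229, 162, 296 and 284 CPM in mono-PSCs and at 131, 97.2, 155 and 130.3 CPM in 3W-PSCs. The groups did not overlap (log2 fold change -0.93 ± 0.193 SE, adjusted p = 0.00173), and the call held without any 1 library. *Hspa5* (ENSMUSG00000026864, chromosome 2, 34771970 to 34777547 on the plus strand of GRCm38), encoding the Hsp70 chaperone that also holds the 3 sensors inactive, was at 1037, 1580.1, 2446 and 1857 CPM in mono-PSCs and at 1214, 1045, 1085 and 1084 CPM in 3W-PSCs. Mono-PSC replicate 1 lay below all 3W-PSC libraries and the other mono-PSC replicates above them. The fall of *Hspa5* passed the test with 8 libraries (log2 fold change -0.65 ± 0.208 SE, adjusted p = 0.0278). It did not pass without mono-PSC replicate 3 (0.123), mono-PSC replicate 4 (0.0746), 3W-PSC replicate 2 (0.0858), 3W-PSC replicate 3 (0.0562) or 3W-PSC replicate 4 (0.0754), each adjusted p in parentheses.

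*Pdia4* (ENSMUSG00000025823, chromosome 6, 47796141 to 47813430 on the minus strand of GRCm38), encoding ERp72, was at 104, 139, 197 and 191 CPM in mono-PSCs and at 103, 104, 95.1 and 116 CPM in 3W-PSCs. Here too mono-PSC replicate 1 overlapped the 3W-PSC range (log2 fold change -0.60 ± 0.186 SE, adjusted p = 0.0234). Leaving out mono-PSC replicate 3 (0.0847), mono-PSC replicate 4 (0.0895), 3W-PSC replicate 1 (0.0593), 3W-PSC replicate 2 (0.0624) or 3W-PSC replicate 3 (0.0617) ended the call. *Manf* (ENSMUSG00000032575, chromosome 9, 106838312 to 106891979 on the minus strand of GRCm38), a secreted protein that binds BiP, moved the other way, from 78.8, 34.3, 68.7 and 43.3 CPM to 92.6, 81.8, 122 and 79.9 CPM. The lowest 3W-PSC library stood barely above the highest mono-PSC library (log2 fold change 0.73 ± 0.229 SE, adjusted p = 0.0246). Its adjusted p was above 0.05 without mono-PSC replicate 2 (0.0727), mono-PSC replicate 4 (0.0815) or 3W-PSC replicate 3 (0.0886), and with all 12 libraries in 1 fit (0.232). *Manf* shares 312 exonic bases with *Dcaf1* and *4930524O07Rik* on the opposite strand.

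The levels of *Ern1* and *Xbp1*, the genes of the IRE1-XBP1 branch itself, did not pass the test in this comparison. *Ern1* was at 12.8, 7.25, 6.57 and 5.44 CPM in mono-PSCs and at 12.8, 14.9, 15.7 and 10.5 CPM in 3W-PSCs (log2 fold change 0.75 ± 0.289 SE, adjusted p = 0.0650). Mono-PSC replicate 1 was the sole mono-PSC library within the 3W-PSC range, and without it the adjusted p of *Ern1* was 0.00585. With all libraries and no filter on low counts the adjusted p of *Ern1* was 0.0474. *Xbp1* was at 38.6, 9.40, 24.0 and 16.6 CPM in mono-PSCs and at 35.7, 36.8, 47.1 and 34.04 CPM in 3W-PSCs (log2 fold change 0.79 ± 0.297 SE, adjusted p = 0.0585). Mono-PSC replicate 1 was again the sole one in the 3W-PSC range, and the adjusted p of *Xbp1* without it was 0.00113, by DESeq2 0.0441 and with no filter on low counts 0.00151. *Dnajb9*, a classical XBP1 target, had a like estimate (log2 fold change 0.76 ± 0.319 SE, adjusted p = 0.0876). In the fit without mono-PSC replicate 1, 4266 of all 11747 genes tested were called, against 3054 of 11551 with that library.

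The other 12 genes of the chaperone group passed no test between mono-PSCs and 3W-PSCs. *Hsp90b1*, *Calr*, *Canx* and *Pdia3* had log2 fold changes of 0.04, -0.03, -0.14 and 0.00, with SE of 0.153 to 0.178. *Pdia3* encodes the disulphide isomerase that works with calnexin and calreticulin. The co-chaperone genes *Dnajb11* and *Dnajc3* stood at -0.0015 and -0.02. *Pdia6* and the BiP nucleotide exchange factor gene *Hyou1* had estimates of 0.31 and 0.35, and the collagen-folding subunit gene *P4hb* one of -0.29. *Sdf2l1* and *Creld2*, ER proteins induced by ER stress, stood at -0.47 and -0.08, and *Atf6* at 0.26. Of these, *P4hb* passed without mono-PSC replicate 1 (adjusted p = 0.0305) and *Pdia6* without mono-PSC replicate 3 (adjusted p = 0.0384).

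**Figure D3:**
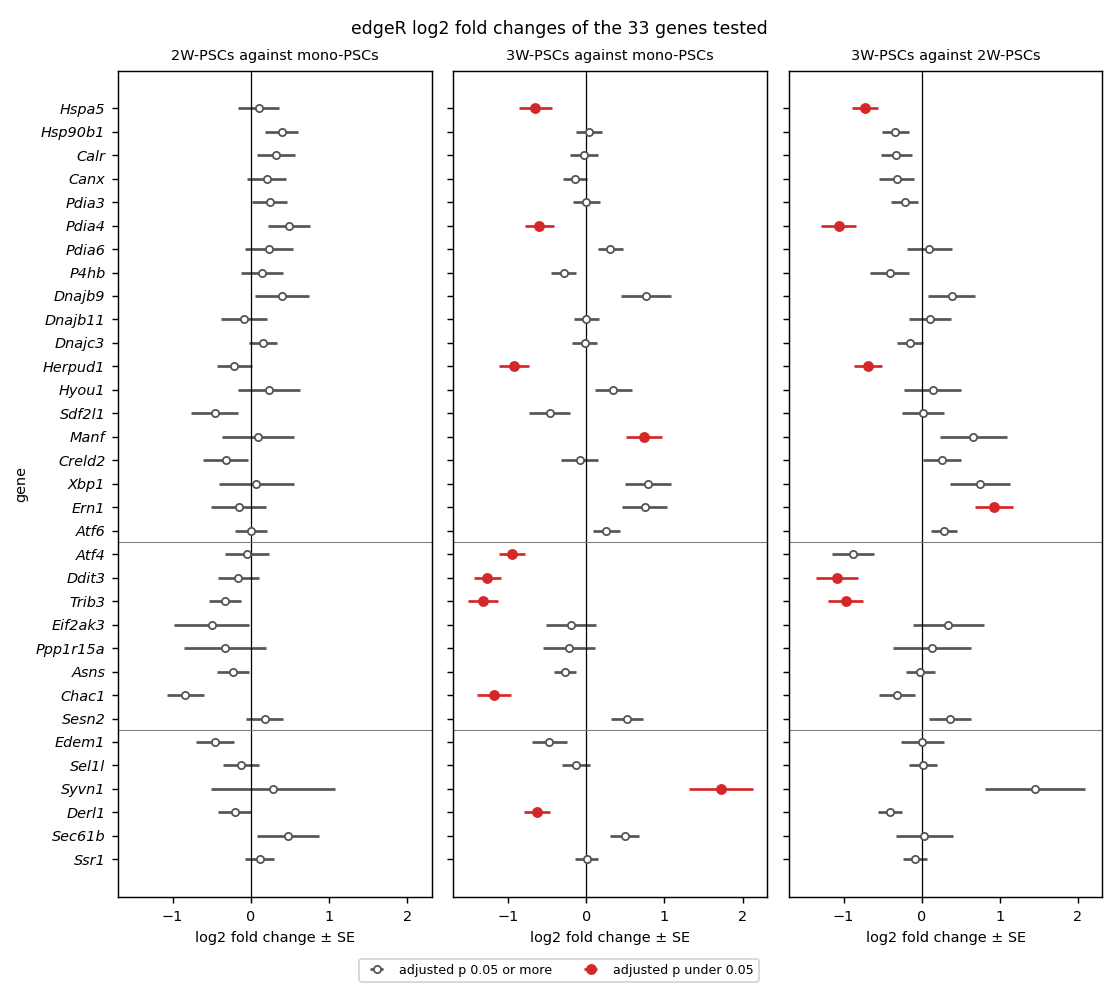
edgeR log2 fold change ± SE (horizontal axes) of the 33 genes tested, by role from top to bottom, in the 3 comparisons; filled red points have an adjusted p under 0.05. No point is red for 2W-PSCs against mono-PSCs, 10 are for 3W-PSCs against mono-PSCs and 6 for 3W-PSCs against 2W-PSCs.

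In the secretory and ERAD group, 1 of 6 tested genes rose and 1 fell in 3W-PSCs against mono-PSCs, where 13.4% of all genes rose and 13.0% fell. *Syvn1* (ENSMUSG00000024807, chromosome 19, 6046576 to 6053712 on the plus strand of GRCm38) encodes HRD1, the ubiquitin ligase of ERAD. It was at 22.3, 2.94, 5.68 and 6.90 CPM in mono-PSCs, with replicate 1 far above the others. In 3W-PSCs it was at 25.9, 33.5, 39.6 and 26.6 CPM, above every mono-PSC library, and the fitted ratio of 3.31 was the highest of the 33 genes (log2 fold change 1.73 ± 0.405 SE, adjusted p = 0.00428). The call held without any 1 library, with a ratio of 5.86 without mono-PSC replicate 1, and was lost with all 12 libraries in 1 fit (adjusted p = 0.0831). *Syvn1* shares 91 exonic bases with *Mrpl49* on the opposite strand. *Derl1* (ENSMUSG00000022365, chromosome 15, 57869502 to 57892448 on the minus strand of GRCm38), which encodes a channel protein of ERAD, was at 121, 197, 185 and 195 CPM in mono-PSCs and at 106, 109, 120.0 and 117 CPM in 3W-PSCs. Its groups were separated by less than 1 CPM (log2 fold change -0.63 ± 0.165 SE, adjusted p = 0.00883), and the call held without any 1 library.

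The other 4 genes of this group passed no test against mono-PSCs. *Sec61b*, a subunit of the translocation channel, was at 82.3, 47.4, 69.4 and 44.4 CPM in mono-PSCs and at 90.4, 82.1, 88.4 and 82.4 CPM in 3W-PSCs (log2 fold change 0.49 ± 0.188 SE, adjusted p = 0.0634). Without mono-PSC replicate 1 its adjusted p was 0.00594, and with no filter on low counts 0.0281. Of the 75-base windows near its 3′ end, 20.5% also occur in *Gm10320*, *Gm33666* or *Gm5870*, so its counts are uncertain. *Edem1*, a lectin that hands misfolded glycoproteins to ERAD, had an estimate of -0.47 (adjusted p = 0.124), and without 3W-PSC replicate 3 an adjusted p of 0.0240. *Sel1l*, the HRD1 partner, and *Ssr1*, a translocon-associated protein, stood at -0.13 and 0.00.

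The third comparison asked what differed when MØs were added to PCC-PSC cultures. It shares the 3W-PSC libraries with the second and the 2W-PSC libraries with the first, so the values stand side by side and are not independent. Of 33 genes, 1 was higher and 5 lower in 3W-PSCs than in 2W-PSCs, where 5.73% of all 11513 genes tested were higher and 4.95% lower. The lower genes were *Hspa5*, *Pdia4*, *Herpud1*, *Ddit3* and *Trib3*, and the higher gene was *Ern1*. The median log2 fold change was 0.01, against 0.00 over all genes. With a log2 fold change above 1 as well, 0 genes were higher and 2 lower (*Pdia4* and *Ddit3*), against 3.82% and 2.02% of all genes. Without 2W-PSC replicate 2, 2 genes were higher and 7 lower, with *Syvn1*, *Atf4* and *P4hb* added, while the background rose to 9.36% higher and 8.597% lower. The median of the 33 genes was then -0.15, with 10 positive and 23 negative, against 17 and 16 with all libraries.

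*Pdia4* was at 159.5, 309, 168 and 239.7 CPM in 2W-PSCs. All 2W-PSC libraries were above all 3W-PSC libraries, replicate 2 most of all, and the 3W-PSC level was 0.479 times that of 2W-PSCs (log2 fold change -1.06 ± 0.219 SE, adjusted p = 0.0118). Its estimate was -0.85 ± 0.159 SE (adjusted p = 0.00174) without 2W-PSC replicate 2. The adjusted p of *Pdia4* rose to 0.0501 without 3W-PSC replicate 2. *Hspa5* was at 1499.9, 2154, 1904 and 1782 CPM in 2W-PSCs, again above every 3W-PSC library (log2 fold change -0.73 ± 0.168 SE, adjusted p = 0.0198). The call was lost without 2W-PSC replicate 4 (0.0549), 3W-PSC replicate 1 (0.0552), 3W-PSC replicate 2 (0.0870), 3W-PSC replicate 3 (0.0542) or 3W-PSC replicate 4 (0.0727). *Herpud1* was at 201, 177, 242 and 212 CPM in 2W-PSCs and did not overlap with 3W-PSCs (log2 fold change -0.69 ± 0.179 SE, adjusted p = 0.0325). The call was lost without 2W-PSC replicate 1 (0.0521), 2W-PSC replicate 3 (0.0557), 2W-PSC replicate 4 (0.0844), 3W-PSC replicate 1 (0.0921), 3W-PSC replicate 2 (0.118) or 3W-PSC replicate 4 (0.0917). The log2 fold changes were -0.64 ± 0.141 SE (adjusted p = 0.00528) for *Hspa5* and -0.76 ± 0.160 SE (adjusted p = 0.00392) for *Herpud1* without 2W-PSC replicate 2.

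In the ATF4 arm, *Ddit3* was at 562, 1230.5, 577 and 732 CPM in 2W-PSCs, where replicate 2 stood apart and the others were still above all 3W-PSC libraries (log2 fold change -1.08 ± 0.265 SE, adjusted p = 0.0258). Leaving out 2W-PSC replicate 4 (0.0612), 3W-PSC replicate 1 (0.0897), 3W-PSC replicate 2 (0.100) or 3W-PSC replicate 4 (0.0584) ended it as a call. *Trib3* was at 231, 305, 239 and 198 CPM in 2W-PSCs, with no overlap (log2 fold change -0.97 ± 0.224 SE, adjusted p = 0.0196). The call was lost without 3W-PSC replicate 1 (0.0722), 3W-PSC replicate 2 (0.0665) or 3W-PSC replicate 4 (0.0523). *Atf4* was at 1168, 2418, 968 and 1395 CPM in 2W-PSCs, where replicate 2 was again the highest. Its groups did not overlap, and the test was missed by little (log2 fold change -0.88 ± 0.269 SE, adjusted p = 0.0599). It was passed without 2W-PSC replicate 2 (0.0283) or 2W-PSC replicate 3 (0.0278), with no filter on low counts (0.0418), with all 12 libraries in 1 fit (0.0345) and by DESeq2 (0.0164). *Chac1* overlapped between these cultures (log2 fold change -0.32 ± 0.229 SE, adjusted p = 0.418). Without 2W-PSC replicate 2 the log2 fold changes were -0.77 ± 0.165 SE (adjusted p = 0.00447) for *Ddit3*, -0.84 ± 0.190 SE (adjusted p = 0.00625) for *Trib3*, -0.54 ± 0.159 SE for *Atf4* and -0.45 ± 0.191 SE (adjusted p = 0.120) for *Chac1*.

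*Ern1* (ENSMUSG00000020715, chromosome 11, 106394650 to 106487852 on the minus strand of GRCm38), the IRE1 gene, was at 8.02, 6.62, 6.05 and 7.71 CPM in 2W-PSCs, below all 3W-PSC libraries (log2 fold change 0.92 ± 0.244 SE, adjusted p = 0.0357). The call was lost without any 1 of the 8 libraries except 2W-PSC replicate 2, with adjusted p from 0.0509 to 0.121, and also with no filter on low counts (0.0588). *Xbp1* was at 27.5, 8.095, 40.6 and 15.3 CPM in 2W-PSCs, a range that held all 3W-PSC values but 1 (log2 fold change 0.74 ± 0.384 SE, adjusted p = 0.250). *Syvn1* was at 15.1, 0.245, 23.7 and 6.10 CPM in 2W-PSCs, where the lowest library, replicate 2, held 1 count. All 3W-PSC libraries were above these, yet the spread within 2W-PSCs left the estimate uncertain (log2 fold change 1.45 ± 0.640 SE, adjusted p = 0.175). Once 2W-PSC replicate 2 was left out, the log2 fold changes were 0.89 ± 0.258 SE (adjusted p = 0.0260) for *Ern1*, 0.47 ± 0.256 SE (adjusted p = 0.227) for *Xbp1* and 1.07 ± 0.324 SE (adjusted p = 0.0318) for *Syvn1*.

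*Derl1* was at 128, 153, 138 and 179 CPM in 2W-PSCs, above the 3W-PSC libraries without passing the test (log2 fold change -0.40 ± 0.155 SE, adjusted p = 0.126). *Manf* was at 76.0, 12.8, 95.4 and 53.1 CPM in 2W-PSCs, with wide overlap (log2 fold change 0.66 ± 0.432 SE, adjusted p = 0.365). In the absence of 2W-PSC replicate 2 these were -0.39 ± 0.146 SE (adjusted p = 0.0770) for *Derl1* and 0.33 ± 0.199 SE (adjusted p = 0.274) for *Manf*. *P4hb* had a log2 fold change of -0.41 with an adjusted p of 0.325, which was 0.00722 without 2W-PSC replicate 2. That library was the lowest for *P4hb*, at 211 CPM against 419 to 545 CPM in the others.

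Summed over the 8 genes, the ATF4 arm stood at 3268 ± 402 CPM (SD, n = 4) in mono-PSCs, 2902 ± 914 in 2W-PSCs and 1694 ± 145 in 3W-PSCs. The highest 3W-PSC library was at 1792 CPM, the lowest 2W-PSC library at 2260 and the lowest mono-PSC library at 2726. The 19 genes of the chaperone group summed to 5924 ± 1230, 6768 ± 802 and 5152 ± 245 CPM, with overlap between mono-PSCs and 3W-PSCs. The secretory and ERAD group summed to 544 ± 53.3, 528 ± 35.3 and 508 ± 25.4 CPM, so its total was nearly level. Within it *Derl1* had a mean of 174 CPM in mono-PSCs and 113 CPM in 3W-PSCs, and *Syvn1* one of 9.45 and 31.4 CPM. Without 2W-PSC replicate 2, at 4249 CPM in the ATF4 arm, the 2W-PSC sums were 2453 ± 210, 6538 ± 806 and 538 ± 34.7 CPM (SD, n = 3) in the same order of groups. These sums describe the groups and were not tested.

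**Figure D4:**
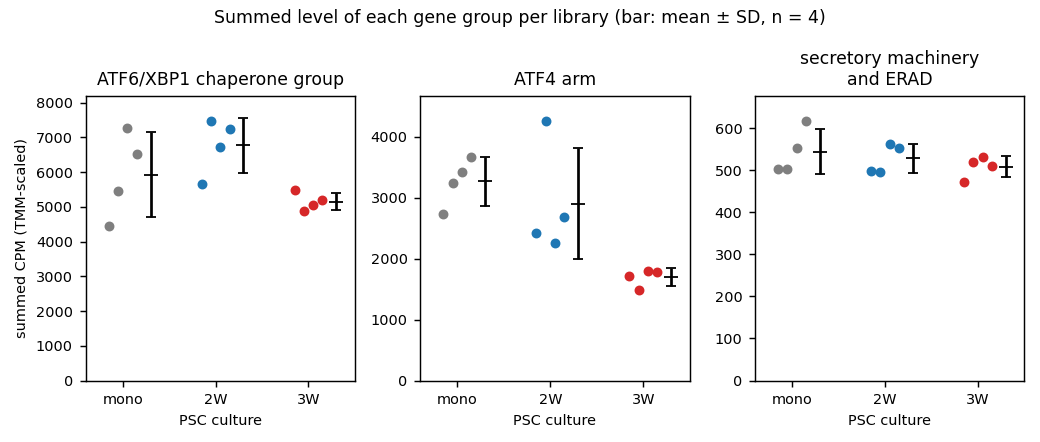
Summed CPM (vertical axes, from 0) of the 19 chaperone group genes, the 8 ATF4 arm genes and the 7 secretory and ERAD genes in each library of the 3 cultures, with the mean ± SD beside the points. The ATF4 arm in 3W-PSCs lies between 1483 and 1792 CPM, below every library of the other cultures.

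The libraries of a culture also differed among themselves. The highest library exceeded the lowest by more than 2-fold for 8 of 33 genes in mono-PSCs, 15 in 2W-PSCs and 3 in 3W-PSCs, or 24.2%, 45.5% and 9.09% of them. Over all genes with counts in every library these shares were 34.1%, 49.6% and 19.0%. Without 2W-PSC replicate 2, which was the lowest library for 17 of 33 genes, 5 genes remained in 2W-PSCs (15.2%, against 21.9% of all genes). *Syvn1*, *Xbp1* and *Ppp1r15a* spread by more than 2-fold in both mono-PSCs and 2W-PSCs, also without that library. In 3W-PSCs it was *Edem1*, *Ppp1r15a* and *Dnajb9*. Every 3W-PSC library held more counts than any 2W-PSC library, and the part of depth in these spreads was not tested.

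Wider lists of ER and stress genes were read in the same fits. Against mono-PSCs, 2W-PSCs had 0 genes called by edgeR in every list, with 5 higher and 3 lower of 184 at an unadjusted p under 0.05, against 7.40% of all genes. Leaving out 2W-PSC replicate 2 gave 6 and 5, against 9.49%, and 1 heat shock chaperone gene, *Cryab*, named after its value was seen, was called lower. Over all genes, 13.4% were higher and 13.0% lower in 3W-PSCs against mono-PSCs, and 5.73% and 4.95% against 2W-PSCs. The shares against 2W-PSCs were 9.36% and 8.597% without 2W-PSC replicate 2. Of 29 other ER folding and collagen folding genes tested, 2 were higher and 6 lower in 3W-PSCs than in mono-PSCs, and 0 and 7 against 2W-PSCs (0 and 10 without 2W-PSC replicate 2). *Mesdc2*, the LDL receptor family chaperone, and *Cnpy2* fell against mono-PSCs by 1.08 and 0.86 on the log2 scale. The disulphide isomerase gene *Txndc5* and the glycoprotein folding sensor gene *Uggt1* were the 2 higher ones, at 0.87 and 0.47. *Fkbp7* and *Rcn3*, an ER prolyl isomerase and a calcium-binding ER protein, fell most against 2W-PSCs, by 1.23 and 0.91. Of 12 oligosaccharyltransferase genes, 3 fell against mono-PSCs and 2 against 2W-PSCs, *Ostc* (-0.92 and -0.95) and *Krtcap2* (-0.62 and -0.74) in both. Of 20 translocon and signal peptidase genes, 1 was higher and 1 lower against mono-PSCs, *Spcs3* at 0.77 and *Ssr4* at -0.57, and *Ssr4* was the 1 lower gene against 2W-PSCs (-0.95). Of 20 other ERAD genes, 2 fell against mono-PSCs, the selenoprotein gene *Vimp* (-1.01) and *Rnf139* (-0.55), and *Vimp* was the 1 lower gene against 2W-PSCs (-0.85).

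Among 25 other ATF4 target genes tested, 3 were higher and 7 lower against mono-PSCs, and 3 higher and 3 lower against 2W-PSCs. Over all genes the shares were 13.4% and 13.0% against mono-PSCs, and 5.73% and 4.95% against 2W-PSCs. The transcription factor gene *Cebpb* rose against both (log2 fold change 1.58 ± 0.224 SE, adjusted p = 5.12e-05; log2 fold change 1.54 against 2W-PSCs). *Atf3*, a stress-induced transcription factor, fell (log2 fold change -1.53 ± 0.343 SE, adjusted p = 0.00311), as did the serine synthesis gene *Psat1* (log2 fold change -1.08 ± 0.178 SE, adjusted p = 0.000242). *Slc7a11*, the cystine transporter, rose by 1.11 on the log2 scale against 2W-PSCs, and *Pycr1* and *Slc1a4* fell by 0.92 and 0.86. *Aldh18a1* rose by 1.21 against mono-PSCs, and by 2.10 without mono-PSC replicate 1. Of 15 other UPR regulators and stress kinases, 4 were higher and 1 lower against mono-PSCs, and 0 and 1 against 2W-PSCs. The higher ones included the eIF2α kinases *Eif2ak2*, which is PKR and known to be induced by interferon (log2 fold change 1.24 ± 0.196 SE, adjusted p = 0.000164), and *Eif2ak4*, the amino acid sensor GCN2 (log2 fold change 0.79 ± 0.207 SE, adjusted p = 0.00862). The counts against 2W-PSCs without 2W-PSC replicate 2 were 0 higher and 2 lower for oligosaccharyltransferase genes, 0 and 2 for translocon genes, 0 and 1 for ERAD genes, 3 and 3 for ATF4 targets and 0 and 1 for UPR regulators. In that fit 9.36% of all genes were higher and 8.597% lower. *Creb3*, an ER-bound transcription factor, was the lower gene in both comparisons (-0.82 and -0.73). Over these lists and those of vesicle traffic, tRNA synthetases and heat shock, the calls of 17 of 27 named genes held without any 1 library against mono-PSCs. The other 10 were *Aldh18a1*, *Dnajb1*, *Rnf139*, *Sec24a*, *Spcs3*, *Ssr4*, *Tars*, *Txndc5*, *Uggt1* and *Vars*, with adjusted p up to 0.142 without 1 library. Against 2W-PSCs the calls of 2 of 15 held, *Cebpb* and *Vimp*, and the others reached adjusted p up to 0.150.

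**Figure D5:**
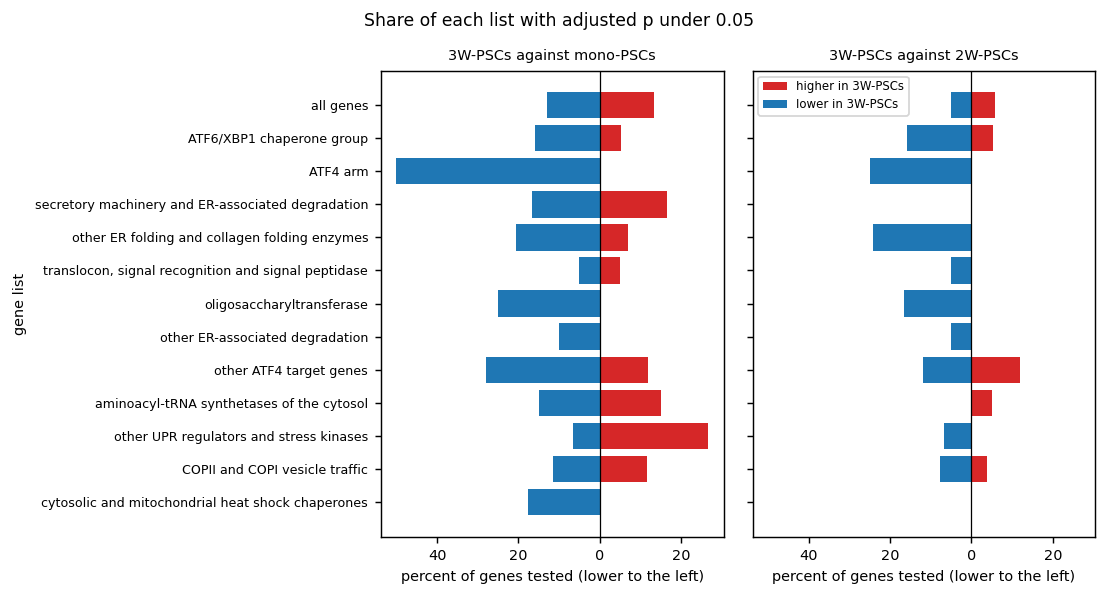
Percent of the genes tested in each list that were higher (red, to the right) or lower (blue, to the left) in 3W-PSCs at an adjusted p under 0.05, against mono-PSCs (left) and 2W-PSCs (right), with all genes on top. The ATF4 arm has 4 of 8 genes lower on the left, where 13.0% of all genes are lower, and small lists move by large steps.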

How the data were processed

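RNA of sorted PSCs was measured in 12 libraries, 4 each of mono-PSCs, 2W-PSCs and 3W-PSCs. The authors made QuantSeq 3′ libraries and read single ends. After FastQC and trimming, reads were aligned to GRCm38 by STAR, and featureCounts assigned them to Ensembl genes. The deposited values are raw counts: they are whole numbers with a different total in each library, whereas the study's text names them normalised. The strand setting and the use of molecular identifiers are not given in the sources used here, so statements on depth cover counting error only. Total counts were 4561817 to 8093368 per library.

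Cultures were compared in pairs with edgeR 4.0.16 under R 4.3.3 (TMM, filterByExpr, glmQLFit and glmQLFTest on the 8 libraries of a pair, no block), with Benjamini-Hochberg adjustment over all genes tested and calls at an adjusted p under 0.05. A second rule, after the study, also asked for an absolute log2 fold change above 1. Single levels were compared with exact two-sided permutation tests of mean log2 CPM with a prior count of 2. The edgeR and DESeq2 tests were first run on simulated data with known changes, and the permutation test was not.

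All 34 genes are described, with at most 2 genes per direction, list and comparison from wider lists, those of largest change with a mean log2 CPM above 3. The genes, lists and tests were chosen with earlier results of these data known. Gene positions and overlaps come from the GENCODE annotation of GRCm38, and promoter windows and their motifs from RefSeq on GRCm38.p6. The alternatives were DESeq2's size factors, no filter, at least 10 counts in every library, all 12 libraries in 1 fit, the replicate number as a block, DESeq2 1.42.0, the most abundant gene left out before scaling, and each library left out in turn.

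Replicate numbers are shared between cultures. Deviations from the culture means correlated across genes between same-numbered libraries at 0.11 to 0.37 for 2W-PSCs and mono-PSCs, over 0.1 in all 4 pairs. Of the 2W-PSC libraries 4 of 4 correlated best with their own number, and of the mono-PSC libraries 3 of 4. These numbers were taken as pairs there, from the data and not from a stated batch, and the block changed no call of the 33 genes. In the other comparisons they were taken as numbers only.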

Additional observations from a re-analysis of the deposited data

Results flagged for a closer look

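Of 99 sets of 4 libraries, 1 per gene and culture, 2 held a library far from the other 3 by Dixon's test at the 95% level, where chance gives about 1 in 20. *Pdia3*, the disulphide isomerase of the calnexin cycle, stood at 613 CPM in 2W-PSC replicate 4, with the other 2W-PSC libraries at 421 to 440 CPM (439.5 the highest). *Derl1* stood at 121 CPM in mono-PSC replicate 1, with the other mono-PSC libraries at 185 to 197 CPM. Left without that library, *Derl1* was still lower in 3W-PSCs than in mono-PSCs (edgeR log2 fold change -0.78, adjusted p = 0.000176).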

How the results depend on the processing

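Against mono-PSCs, 2W-PSCs had 0 of the 33 genes called in either direction in all alternatives. For 3W-PSCs against mono-PSCs, the 2 genes called higher became 6 with no filter on low counts, 0 with all 12 libraries in 1 fit and 4 with the replicate number as a block, and 1 to 6 with 1 library left out (6 without mono-PSC replicate 1). The 8 called lower stayed within 6 to 9 with 1 library left out. Calls over all genes in this comparison also rose without mono-PSC replicate 1, from 3054 of 11551 to 4266 of 11747. Whether the gain among the 33 genes goes beyond the gain over all genes was not tested. Without any other library these calls fell, to as few as 2228 of 11701 without 3W-PSC replicate 2. They numbered 3572 of 17817 with no filter, 2063 of 11776 with all 12 libraries in 1 fit and 3092 of 11551 with the block. For 3W-PSCs against 2W-PSCs, the 1 gene called higher became 0 with no filter, with all 12 libraries in 1 fit and with the replicate block, and 0 to 2 with 1 library left out. The 5 called lower became 2 with the block, *Pdia4* and *Herpud1*, and 0 to 7 with 1 library left out, 0 without 3W-PSC replicate 2 and 7 without 2W-PSC replicate 2. With all 12 libraries in 1 fit the calls of *Hspa5* and *Pdia4* against mono-PSCs (adjusted p = 0.0589 and 0.0941) and of *Hspa5* and *Ern1* against 2W-PSCs (0.0509 and 0.0521) were also lost, and *Atf4* gained one against 2W-PSCs (0.0345). The cause of these changes was not tested.

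The replicate block added *Xbp1* (adjusted p = 0.0170) and *Sec61b* (adjusted p = 0.0315) to the genes called higher against mono-PSCs in 3W-PSCs. Against 2W-PSCs it ended the calls of *Hspa5* (0.0660), *Ern1* (0.0997), *Ddit3* (0.0668) and *Trib3* (0.0560). Same-numbered libraries correlated at 0.01 to 0.13 and -0.05 to 0.16 in these comparisons, and 2 of 4 and 2 of 4, then 2 of 4 and 1 of 4, correlated best with their own number. Over all genes, calls for 3W-PSCs against 2W-PSCs numbered 1230, or 752 with the block, and 497 (without 3W-PSC replicate 2) to 2107 (without 2W-PSC replicate 2) with 1 library left out. For 2W-PSCs against mono-PSCs they numbered 111, against 275 by DESeq2, 262 with all 12 libraries, 177 with no filter, 57 where every library had to hold at least 10 counts, 135 with the block, and 61 (without mono-PSC replicate 4 or 2W-PSC replicate 4) to 233 (without 2W-PSC replicate 2) with 1 library left out. They also fell by more than 1.5 times without 2W-PSC replicate 1 (64) or mono-PSC replicate 3 (63).

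Over all alternatives, 2111 estimates of single genes were computed. Of these, 1797 kept their direction and side of the threshold, 195 lost a call, 22 gained one and 0 called estimates changed sign. Another 97 changed sign with no call in either fit, by estimates no larger than 0.37 on the log2 scale. With 4 libraries per culture, a gene that was not called is not shown to be level.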

Other observations

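Further stress and trafficking genes were read in the same fits, all in 3W-PSCs. Over all genes, 13.4% were higher and 13.0% lower against mono-PSCs, and 5.73% and 4.95% against 2W-PSCs. Against 2W-PSCs without 2W-PSC replicate 2 the shares were 9.36% and 8.597%. Among 17 cytosolic and mitochondrial heat shock chaperones, 0 were higher and 3 lower against mono-PSCs. The small heat shock protein gene *Cryab* fell most (log2 fold change -1.76 ± 0.198 SE, adjusted p = 4.37e-06), with 36.8 ± 12.1 CPM in 3W-PSCs against 124 ± 5.04 in mono-PSCs (SD, n = 4). The Hsp40 gene *Dnajb1* fell by 0.60 on the log2 scale. Against 2W-PSCs edgeR called 0 of the 17 in either direction, with 1 higher and 1 lower at an unadjusted p under 0.05, against 26.3% of all genes. Without 2W-PSC replicate 2 it called 0 lower and 1 higher, *Hspa1b*, which is named after its value was seen and has a near-identical copy, *Hspa1a*, so its counts are uncertain.

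Of 26 genes of COPII and COPI vesicle traffic, 3 were higher and 3 lower against mono-PSCs, and 1 higher and 2 lower against 2W-PSCs. The shares over all genes were 13.4% and 13.0% against mono-PSCs, and 5.73% and 4.95% against 2W-PSCs. The COPII coat genes *Sec24b* and *Sec24a* (0.82) were higher against mono-PSCs, and the COPI coat genes *Cope* (-0.75) and *Copb1* (-0.54) lower, all as log2 fold changes. Against 2W-PSCs the values were 1.07 for *Sec24b*, -0.94 for *Cope* and -0.66 for *Copb1*. Of 20 cytosolic tRNA synthetase genes, 3 were higher and 3 lower against mono-PSCs, among them *Tars* (0.47) and *Vars* (0.42) higher and *Sars* (-0.68) and *Gars* (-0.58) lower. Against 2W-PSCs 1 was higher, *Iars* (0.63). Leaving out 2W-PSC replicate 2 gave 1 vesicle traffic gene higher and 2 lower, and 2 tRNA synthetase genes higher. In that fit 9.36% of all genes were higher and 8.597% lower.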
